A study of Mus musculus with 6 samples.

Results

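The Id genes and the Smads of bone morphogenetic protein (BMP) signaling were examined in fetal mouse prostate mesenchymal cells treated with E2 (estradiol). They are 8 genes, Id1, Id2, Id3, Id4, Smad1, Smad5, Smad6 and Smad7. They were taken by gene symbol from the annotation of the array, which gave 14 of the 22626 probe sets that are not controls. The cells were mesenchyme of the urogenital sinus, from which the prostate forms, taken from male fetuses of CD-1 mice at gestation day 17. Epithelial cells had been discarded, and first passage cells were used. The E2 group, 3 samples, was given 100 nM E2 for 4 days, and the control group, 3 samples, was given the ethanol vehicle. Both groups were kept in medium with 690 pM DHT (dihydrotestosterone), an androgen that cannot be turned into estrogen. They spent 3 days in this medium, free of estrogen, before the treatment began. The labels do not say that the replicates came from separate cell preparations, so the p-values measure only how much these samples varied, and that variation may be technical. The total RNA was hybridized to Affymetrix arrays, and the deposited signal is a linear intensity per probe set.

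BMPs are secreted ligands that bind paired receptor kinases at the cell surface. The receptors phosphorylate Smad1 and Smad5, which join Smad4, enter the nucleus and switch on target genes, among which the Id genes are the best known. Id proteins carry a helix-loop-helix domain without the basic stretch that contacts DNA, so they pair with bHLH (basic helix-loop-helix) transcription factors and keep them off DNA. Smad6 and Smad7 are inhibitory Smads that BMP signaling itself induces and that damp it in turn. In the urogenital sinus, Bmp4 is made by the mesenchyme and restrains the budding of the prostatic ducts.

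The sequence before the transcription start of Id2, Id3 and Id4 is shown because the arrays of the 2 groups separated for Id2 and Id3 and overlapped for Id4. Promoters of 6 of the 8 genes were taken from RefSeq on build GRCm38.p6, without Id1 and Smad7. Each line gives the 250 bases upstream of the start, 5′ to 3′ in the direction of the gene, and capitals mark matches to motifs bound by Smads. These are GGCGCC, a GC-rich motif that reads the same on both strands, and CAGAC, searched on both strands and so also read as GTCTG. The motifs share no overlapping match here.
Id2 promoter, chr12:25096093-25096342, minus strand: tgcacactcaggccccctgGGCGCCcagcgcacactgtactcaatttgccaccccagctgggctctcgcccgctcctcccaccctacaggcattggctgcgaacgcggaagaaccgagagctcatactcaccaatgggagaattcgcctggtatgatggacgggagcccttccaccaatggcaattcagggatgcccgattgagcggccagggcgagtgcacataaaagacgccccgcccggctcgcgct
Id3 promoter, chr4:136143572-136143821, plus strand: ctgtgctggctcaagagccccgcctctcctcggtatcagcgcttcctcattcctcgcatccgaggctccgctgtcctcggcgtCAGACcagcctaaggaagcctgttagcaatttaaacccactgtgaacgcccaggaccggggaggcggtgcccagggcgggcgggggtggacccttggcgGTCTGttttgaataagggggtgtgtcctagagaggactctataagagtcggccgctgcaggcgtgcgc
Id4 promoter, chr13:48260866-48261115, plus strand: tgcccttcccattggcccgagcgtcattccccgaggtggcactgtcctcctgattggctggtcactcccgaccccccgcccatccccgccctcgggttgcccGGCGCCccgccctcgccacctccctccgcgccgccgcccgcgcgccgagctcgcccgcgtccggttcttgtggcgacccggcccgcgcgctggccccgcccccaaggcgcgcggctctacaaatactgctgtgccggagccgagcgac
GGCGCC was found once in Id2, with its first base 231 bases before the start, and once in Id4, 148 bases before it. The Id3 window held no GGCGCC and held CAGAC on both strands, 167 and 68 bases before the start. GGCGCC occurred in 9.59% of the 32851 promoter windows of this length and CAGAC in 42.2%. Neither motif was found in the windows of Smad1 and Smad6, and of the 3 annotated starts of Smad5 1 had GGCGCC and 1 had CAGAC. A match is a description of the letters in the window, and binding was not measured.

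Values are given in units after each array was scaled to its median, and a mean of at least 10 deposited units in E2 or in control was required for testing. Of the 14 probe sets 12 passed this filter, with at least 1 for each of the 8 genes, as did 62.9% of all probe sets. E2 was compared with control by limma, and each difference is the log2 signal in E2 minus that in control. Of the 12 probe sets tested, 0 were higher and 0 were lower at an adjusted p under 0.05, against 0.492% and 0.253% of the 14223 probe sets tested. By 1.5-fold or more, at an unadjusted p up to 0.05, 0 were higher and 1 was lower, Id2, against 2.06% and 1.88% of all probe sets. At an unadjusted p under 0.05, 0 were higher and 2 were lower, Id3 and Id2, against 3.44% and 4.55% of all probe sets. For these 2 probe sets all E2 arrays lay below all control arrays, as for 8.49% of all probe sets. For 0 of the 12 they lay above, as for 5.72% of all probe sets, and for the other 10 the groups overlapped. The difference was negative for 7 of the 12, against 56.6% of all probe sets. The median difference was -0.15 over the 12 and -0.04 over all probe sets tested.

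Id3 gave the lowest unadjusted p of the 8 genes. Its signal was 148, 117 and 119 units in E2 replicates 1 to 3, against 176, 186 and 171 units in control replicates 1 to 3. Every E2 array was below every control array, and E2 replicate 1 was the nearest to control. The means were 128 ± 17.2 units in E2 and 178 ± 7.52 units in control (SD, n = 3 each). This is a log2 difference of -0.48 with a standard error of 0.14, a 95% interval of -0.78 to -0.18 and an unadjusted p of 0.00404. Adjusted over all probe sets by limma the p was 0.225, so Id3 did not pass the test. As deposited, before scaling, the E2 arrays read 156, 93.0 and 151 units and the control arrays 175, 215 and 139 units, and the groups overlapped.

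Id2 had the largest difference of the 8 genes. The signal of its brightest probe set was 12.7, 6.21 and 9.64 units in the E2 arrays and 21.4, 17.8 and 21.3 units in the control arrays. All E2 arrays were below all control arrays, and E2 replicates 2 and 3 lay under 10 units. The means were 9.52 ± 3.25 units in E2 and 20.2 ± 2.04 units in control (SD, n = 3 each). On the log2 scale they differed by -1.14 (SE 0.38, 95% interval -1.95 to -0.32), with an unadjusted p of 0.00954 and an adjusted p of 0.365 from limma. The size of the difference rests on signal near background: it was -0.51 on the log2(value + 16) scale and -0.89 with values under 10 units set to 10. The study listed Id2 from these same arrays, so its direction here is not independent evidence.

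The other probe sets of Id2 were below 10 deposited units in both groups and were not tested. The middle one read 4.25, 10.5 and 5.90 units in E2 and 10.7, 4.68 and 15.1 units in control. The dimmest read 6.42, 8.62 and 8.69 units in E2 and 1.37, 8.15 and 4.29 units in control. The groups overlapped for both probe sets, and the order of their means was opposite. The separation of the groups was therefore seen with 1 of the 3 probe sets of Id2.

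**Figure D1:**
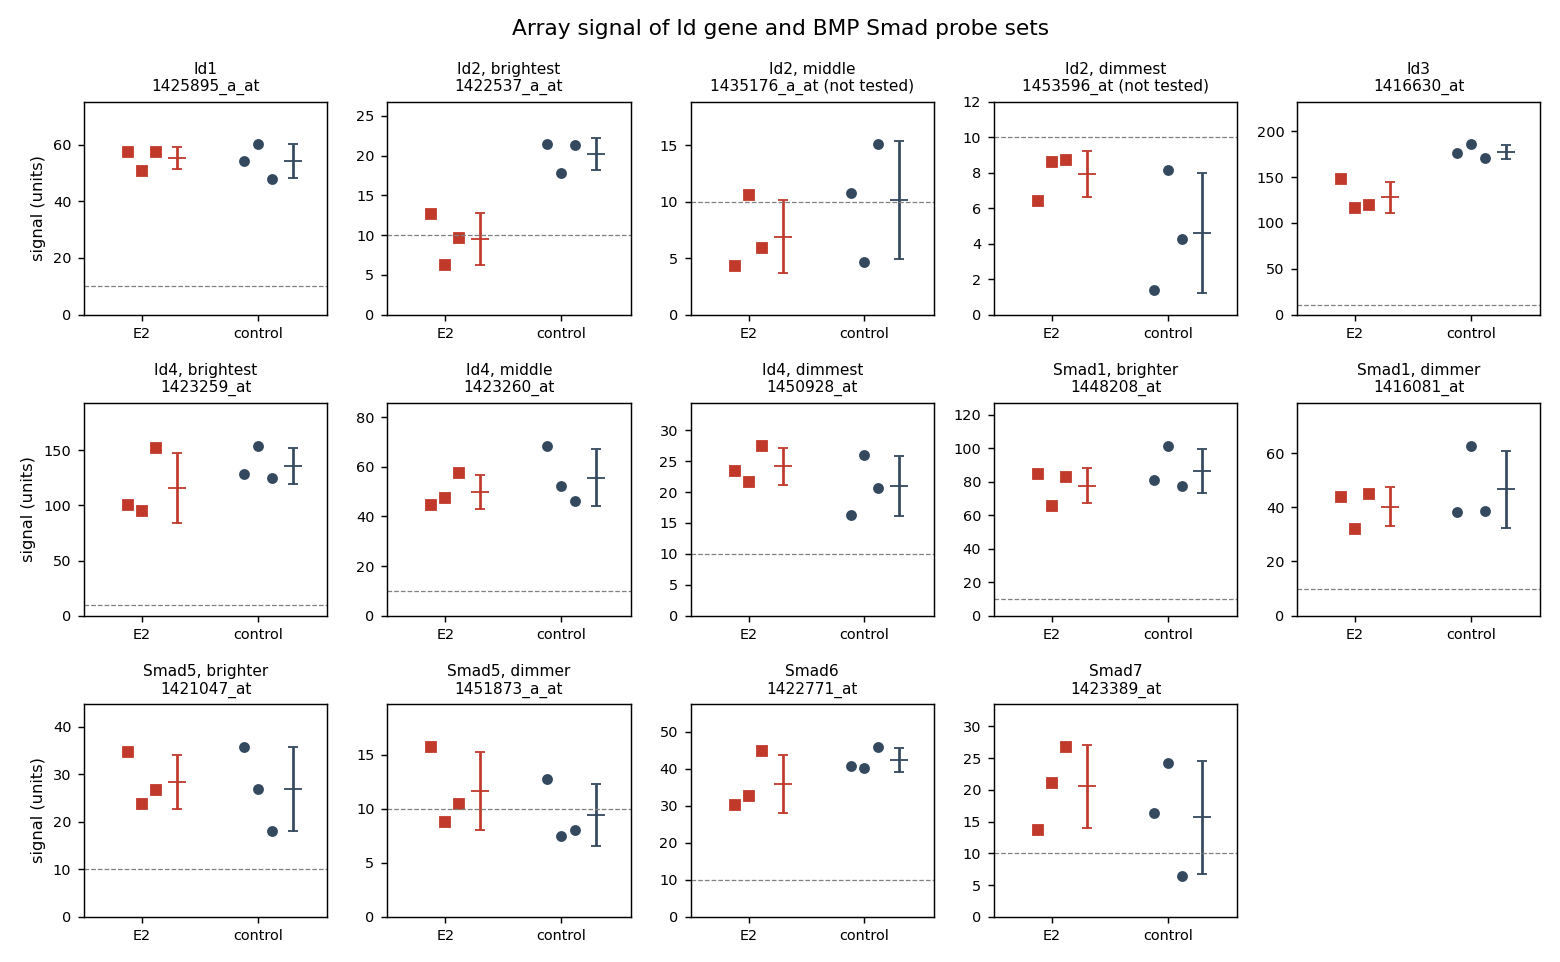
Signal in units, scaled to the median of each array, of the 14 probe sets of the Id genes and BMP Smads. Each panel has the 3 E2 arrays as squares and the 3 control arrays as circles, replicates 1 to 3 from left to right, with the mean and SD beside them and a dashed line at 10 units. For Id3 and for the brightest probe set of Id2 all E2 arrays lie below all control arrays, and in the other panels the groups overlap.

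Id1, the Id gene most often read as a measure of BMP signaling, differed little between the groups. Its signal was 57.4, 50.7 and 57.5 units in E2, against 54.4, 60.1 and 48.1 units in control. The E2 arrays lay within the range of the control arrays. The log2 difference was 0.03 (SE 0.17, 95% interval -0.34 to 0.40), with an adjusted p of 0.981 from limma, so the interval leaves room for a change of up to 0.40 upward or 0.34 downward.

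Because Id1, Id2 and Id3 are read on the same arrays, their ratio within an array is free of the scaling of that array. The log2 signal of Id3 minus that of Id1 was 1.36, 1.20 and 1.05 in E2 and 1.70, 1.63 and 1.83 in control. That of Id2 minus Id1 was -2.18, -3.03 and -2.58 in E2 and -1.34, -1.75 and -1.17 in control. The groups did not overlap in either, and the differences, E2 minus control, were -0.51 for Id3 and -1.17 for Id2. In the exact permutation test, two-sided, both had p = 0.1, which is the smallest that 3 against 3 arrays can give, and 0.1 after adjustment over the 3 ratios computed. For the third ratio, Id2 minus Id3, the difference was -0.66, also with an exact permutation p of 0.1. With so few arrays the test cannot pass the threshold. Id2 and Id3 had already separated the groups on these same arrays, so their ratios to Id1 are no second test. The ratios are a description, and those with Id2 rest on signal near background.

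Id4, the remaining Id gene, was read by 3 probe sets whose differences did not share a sign. The brightest read 100.0, 94.9 and 152 units in E2 and 128, 154 and 125 units in control. E2 replicates 1 and 2 were below all control arrays, and E2 replicate 3 was close to the highest of them. E2 and control differed by -0.26 (SE 0.18, 95% interval -0.65 to 0.13, adjusted p = 0.780 from limma). With single arrays left out it ran from -0.47, without E2 replicate 3, to -0.13, without E2 replicate 2. The middle one ranged from 44.6 to 57.5 units in E2 and from 46.2 to 68.5 units in control, with a difference of -0.15. The dimmest ranged from 21.7 to 27.5 units in E2 and from 16.3 to 25.9 units in control, with a difference of 0.22.

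**Figure D2:**
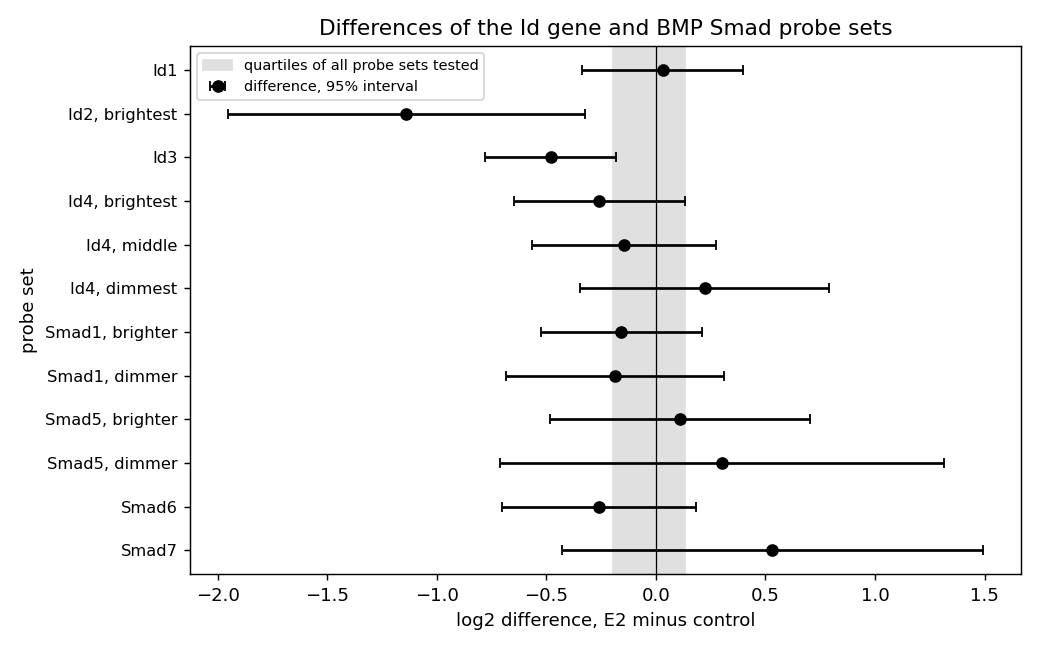
Log2 difference, E2 minus control, of the 12 probe sets tested (points) with its 95% interval from limma (bars). The gray band spans the quartiles of all 14223 probe sets tested, -0.20 to 0.13. The intervals of Id3 and of Id2 lie below 0 and the other 10 include 0, while no probe set passed the threshold after adjustment.

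Smad1 and Smad5, the Smads that BMP receptors phosphorylate, overlapped between the groups. Phosphorylation itself is not read by an array. The brighter probe set of Smad1 read 84.3, 65.5 and 82.7 units in E2 and 80.9, 102 and 77.2 units in control. They differed by -0.16 (SE 0.17, 95% interval -0.52 to 0.21, adjusted p = 0.877 from limma). The second probe set, with means of 40.2 units in E2 and 46.6 units in control, had a difference of -0.19. Smad1 signal was lowest in E2 replicate 2 and highest in control replicate 2 with both probe sets.

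The brighter probe set of Smad5 read 34.6, 23.7 and 26.6 units in E2 and 35.8, 27.0 and 18.1 units in control. Their log2 difference was 0.11 (SE 0.28, 95% interval -0.48 to 0.70, adjusted p = 0.956 from limma). Its sign turned without control replicate 3, where the difference was -0.15, and without E2 replicate 1, where it was -0.04. The dimmer probe set, with means of 11.7 units in E2 and 9.44 units in control, entered the test by its E2 mean only and had a difference of 0.30 (SE 0.47).

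Smad6, the inhibitory Smad that acts mainly on BMP signals, read 30.2, 32.5 and 44.7 units in E2 and 40.7, 40.3 and 45.9 units in control. E2 replicates 1 and 2 were below the control arrays and E2 replicate 3 was among them. The difference of Smad6 was -0.26 (SE 0.21, 95% interval -0.70 to 0.18, adjusted p = 0.813 from limma). It was -0.43 without E2 replicate 3 and -0.15 without E2 replicate 1. Smad7, which inhibits both TGF-β and BMP receptors, read 13.7, 21.1 and 26.8 units in E2 and 16.4, 24.2 and 6.45 units in control. The log2 difference of Smad7 was 0.53 with a wide interval, -0.43 to 1.49 (SE 0.45, adjusted p = 0.828 from limma). It rested on control replicate 3, the only array under 10 units, and was -0.01 without that array.

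**Figure D3:**
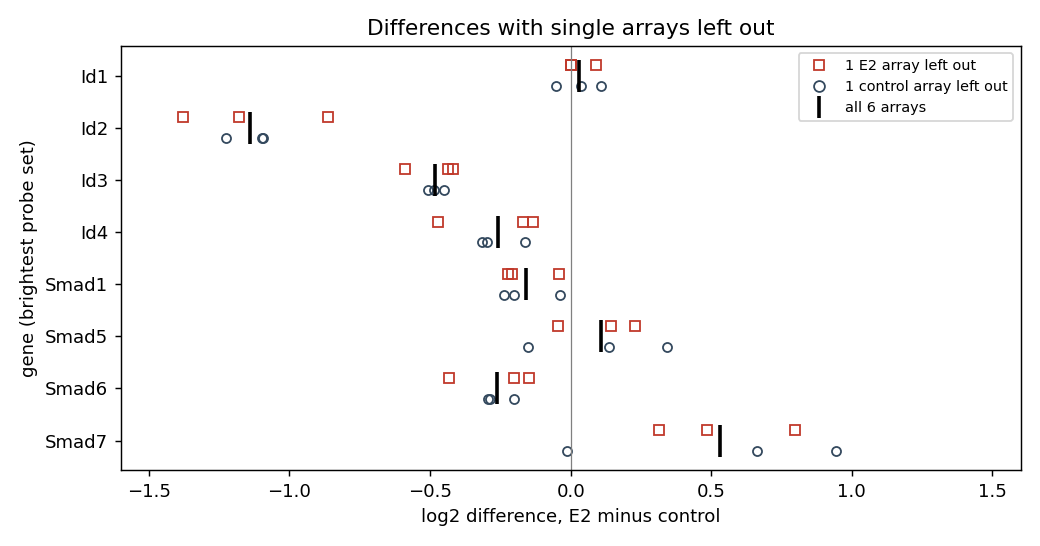
Log2 difference, E2 minus control, of the brightest probe set of each of the 8 genes with all 6 arrays (black bars) and with 1 E2 array (squares) or 1 control array (circles) left out. Id2 stays between -1.38 and -0.86 and Id3 between -0.59 and -0.42. Id1 (-0.05 to 0.11), Smad5 (-0.15 to 0.34) and Smad7 (-0.01 to 0.94) reach both sides of 0 or its edge.

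The arrays also differed in ways that the groups do not account for. The 5′ probe set of the 18S ribosomal RNA control read 361 units in E2 replicate 2 and 345 units in control replicate 3, against 21.6 to 44.9 units on the other 4 arrays. These 2 arrays also had the lowest deposited medians, 13.7 and 14.0 units, where the others had 17.1 to 21.8 units. E2 replicate 2 was the lowest of the E2 arrays for 9 of the 12 probe sets tested, against 52.4% of all probe sets tested, and control replicate 3 was the lowest of the control arrays for 7 of them, against 31.1%. Without both arrays, an alternative chosen after seeing the data, the difference was -0.45 for Id3 (unadjusted p = 0.00872) and -0.82 for Id2 (unadjusted p = 0.0612), with adjusted p of 0.275 and 0.541 from limma. For Smad6 it was then -0.14. The part of 18S signal in the values of the Id genes and Smads was not tested.

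The labelled cell type was set against marker genes. The 8 mesenchyme markers matched were all tested and none passed, and their summed signal was 11720 to 12570 units in E2 and 12030 to 13850 units in control. Of 9 epithelium markers, Krt5, Epcam, Cdh1, Foxa1 and Shh were below 10 deposited units in both groups, and of the 4 tested 1 rose, the keratin Krt18 (log2 difference 0.87, adjusted p = 0.0416 from limma). Of these 4, Krt8, Krt14 and Krt19 had control means under 10 units and entered the test by their E2 means only, so a sum over the 4 is not given. The summed signal of all 9 was 133 to 138 units in E2 and 57.1 to 90.4 units in control. That sum still contains Krt8, Krt14 and Krt19, and also Krt18, with means of 72.0 units in E2 and 39.1 units in control. All 10 macrophage and leukocyte markers had negative differences, against 56.6% of all probe sets tested. None was called by limma, and 3 were lower at an unadjusted p under 0.05, against 4.55% of all probe sets tested. Their summed signal was 588 to 704 units in E2 and 644 to 1072 units in control. Of 7 endothelium markers, Pecam1, Cdh5, Tek, Tie1 and Cldn5 were below 10 units in both groups, and Kdr and Emcn summed to 34.2 to 46.1 units in E2 and 31.3 to 43.6 units in control. The 5 smooth muscle markers, summed, gave 6685 to 7497 units in E2 and 6235 to 7877 units in control. In cultures of mixed cells, fewer cells of a type and less RNA per cell cannot be told apart. The part of these cell types in the values of Id2 and Id3 was not tested.

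Beside the 8 genes, 60 other genes of the pathway were listed, from ligands to the bHLH partners of Id proteins. Of these 50 were matched to the array, 31 were tested and 19 were below 10 units in both groups. Among the 31, 0 rose and 2 fell (Bmp4 and Fst), against 0.492% and 0.253% of all probe sets tested, and 29 did not pass. By an unadjusted p under 0.05, 2 of the 31 were higher and 4 were lower, against 3.44% and 4.55% of all probe sets tested. Bmp4 was the 1 of 10 matched ligands that was tested, the other 9 being below 10 units. It read 138, 94.2 and 87.9 units in E2 and 196, 175 and 227 units in control, and its difference of -0.92 (SE 0.18) had an adjusted p of 0.0243 from limma. Fst, the activin- and BMP-binding follistatin, read 41.0, 36.9 and 46.6 units in E2 and 75.5, 83.3 and 85.6 units in control, and its difference of -0.98 (SE 0.17) had an adjusted p of 0.0124. With both genes every E2 array lay below every control array. Bmp4 no longer passed without E2 replicate 2 or 3 or control replicate 1 or 3, with adjusted p of 0.0583, 0.111, 0.0900 and 0.191, and Fst without E2 replicate 1 or control replicate 2 or 3, with 0.0596, 0.0720 and 0.0977. Neither was called with the values as deposited, and the study picked both on these arrays. For Bmp4 the paper also reported quantitative PCR in independent samples, and described those results as matching its array profiles. Of the 5 antagonists tested 4 did not pass, among them Nbl1, which was higher at an unadjusted p under 0.05 (difference 0.43, adjusted p = 0.582 from limma). The median difference of the 5 was -0.19, against -0.03 over the 8257 genes tested.

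Bambi, a transmembrane decoy receptor that lacks a kinase and is itself a BMP target, came near the threshold. It read 18.7, 18.2 and 19.9 units in E2 and 30.9, 44.5 and 38.7 units in control, so that the highest E2 array was well below the lowest control array. The difference of Bambi was -0.99 (SE 0.23, unadjusted p = 0.000735, adjusted p = 0.0752 from limma), and of the alternatives run on the log2 scale it passed with array weights only (adjusted p = 0.0374, against 0.0745 to 1 with the others). Of the 8 other Smads and Smad regulators tested 0 passed, and their median difference was -0.19. Only 1, Bambi, was lower at an unadjusted p under 0.05, against 4.55% of all probe sets tested. Smad4, the common partner of the receptor Smads, read 204, 162 and 189 units in E2 and 216, 219 and 213 units in control, with no overlap, a difference of -0.23 (SE 0.13) and an adjusted p of 0.715 from limma.

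Among the 7 receptors and co-receptors tested 0 passed. Lower at an unadjusted p under 0.05 was 1, Acvrl1, against 4.55% of all probe sets tested. Acvrl1, a type I receptor for BMP9 and BMP10 in endothelium, had means of 22.6 units in E2 and 33.0 units in control (log2 difference -0.56, adjusted p = 0.571 from limma). Bmpr1a, the broadly expressed type I receptor, had means of 146 units in E2 and 171 units in control (difference -0.24, adjusted p = 0.759). The group had a median difference of 0.04.

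Of the 4 other BMP target genes tested 0 passed. Higher at an unadjusted p under 0.05 was 1, Msx2, against 3.44% of all probe sets tested. Msx2, a homeobox gene, read 22.2, 15.0 and 8.78 units in E2 and 1.24, 1.16 and 4.78 units in control. All control arrays were near background, so the difference of 2.91 (SE 0.93, adjusted p = 0.318 from limma) has an uncertain size, and it was 0.58 with values under 10 units set to 10. Hey1, a repressor also induced by Notch, had means of 15.5 units in E2 and 8.86 units in control (difference 1.22, adjusted p = 0.691). The difference of Hey1 was 0.32 without control replicate 1 and 0.42 with values under 10 units set to 10. Msx2 and Hey1 both entered the test with control means under 10 units.

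All 6 bHLH partners of Id proteins were tested and 0 passed, with 0 at an unadjusted p under 0.05. Tcf3, Tcf4 and Tcf12, the E proteins that Id proteins bind directly, had differences of -0.13, 0.01 and -0.03. Tcf21, a mesenchymal bHLH factor, read 75.3, 43.9 and 94.1 units in E2 and 101, 87.0 and 95.6 units in control (difference -0.48, adjusted p = 0.634 from limma), and without E2 replicate 2 the difference was -0.17. Twist2 read 107, 104 and 98.5 units in E2 and 87.0, 87.7 and 88.8 units in control, where the E2 arrays lay above the control arrays (difference 0.23, adjusted p = 0.728).

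**Figure D4:**
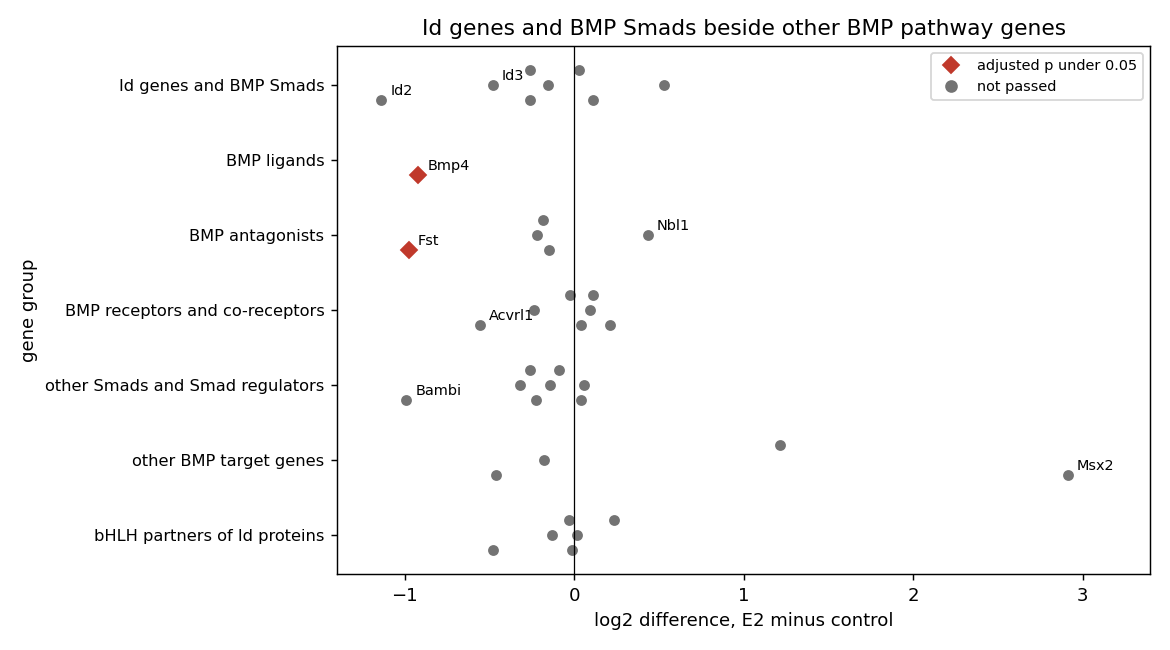
Log2 difference, E2 minus control, of the brightest tested probe set of each gene, by group, with the 8 Id genes and BMP Smads in the top row. Diamonds mark an adjusted p under 0.05 and names are given at an unadjusted p under 0.05. Bmp4 and Fst are the 2 diamonds, near -0.92 and -0.98, and Msx2 stands alone at 2.91.

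The genes whose signal over the 6 arrays was most like that of an Id gene were found by Pearson correlation among the 3264 probe sets of other genes whose mean reached 100 units. This is a description, since the arrays share their scaling and their group. For Id3 they were Mob1a, Asxl1 and Cyb5r3, with r from 0.977 to 0.994. For Id2 they were Igfbp4, Mxra8 and Tinagl1, with r from 0.986 to 0.993, and for Id1 Slc38a2, Sar1b and Sidt2, with r from 0.977 to 0.986. The 6 genes most like Id2 and Id3 all had differences between -0.41 and -0.18, and the 3 most like Id1 had 0.02 to 0.13. These genes were picked for their likeness on the same arrays, so their differences are no second test.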

How the data were processed

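The 6 arrays of the series were used, 3 of E2-treated and 3 of control cells, assigned from their titles. The deposited intensity values are linear. For turning scanned images into numbers the paper named 2 Affymetrix programs, GeneChip Operating Software and Gene Expression Console. It did not say which of them served these 6 arrays. How the programs computed and scaled the signal is not given in the sources used. The medians differed by up to 1.59 times, so each array was scaled to the geometric mean of the medians, without the 64 control probe sets. Probe sets with a deposited mean of at least 10 units in either group were tested in R 4.3.3 with limma 3.58.1 on log2 values, with a variance trend. Tests were two-sided, p-values were adjusted by Benjamini-Hochberg over all probe sets tested, and the threshold was 0.05. Symbols came from the platform annotation, updated by gene ID, and 20380 probe sets had 1 symbol. The brightest probe set stands for a gene outside the 8.

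The genes, the lists and the tests were chosen with earlier results of these data known. Named are all probe sets of the 8 genes, in each pathway group the genes past the threshold or else the 2 with the smallest p, and the 3 genes most like Id1, Id2 and Id3. Tcf3, Tcf4 and Tcf12, for their role, and Nbl1 were named outside this rule, after their values were seen. Other settings tried were scaling by quantiles, by the trimmed mean or not at all, log2(value + 16), values raised to 10 units, a filter at 100 units or none, limma without a trend, without moderation, on linear values, with array weights or with a replicate block, averaging the probe sets of each gene, leaving out every array in turn and, added later, leaving out both arrays of high 18S signal. The number of arrays limits the precision.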

Additional observations from a re-analysis of the deposited data

How the results depend on the processing

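No probe set of the 8 genes passed under any alternative run on separate probe sets, and Id2 and Id3 were lower in E2 in each that tested them (Id2 was left out by the filter at 100 units), with adjusted p of 0.144 to 1 and 0.127 to 1 on the log2 scale. Averaging the probe sets of each gene was counted for the other pathway genes only. Differences that did not pass changed sign with single arrays left out for Id1 (-0.053 to 0.11), the middle Id4 probe set (-0.27 to 0.016), the dimmer Smad1 probe set (-0.31 to 0.049), the brighter Smad5 probe set (-0.15 to 0.34) and Smad7 (-0.011 to 0.94). Without both arrays of high 18S signal the last 2 were at -0.033 and -0.058. The correlation of Id1 over the 6 arrays was 0.02 with Id2 and 0.11 with Id3, and -0.27 and -0.094 after quantile normalization. The cause was not tested.

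Over the whole array 70 probe sets were higher and 36 lower. The counts were 112 and 70 with array weights, 15 and 1 without a trend, 39 and 7 as deposited, 3 and 0 without moderation, and 41 higher with a filter at 100 units. With single arrays left out they were 37 to 75 higher and 11 to 31 lower. The 2 pathway genes called lower became 3 with array weights and 3 when the probe sets of each gene were averaged. They were 1 with the filter at 100 units, 0 to 1 with single arrays left out, and 0 without a trend, without moderation, as deposited or without both arrays of high 18S signal. The deviations of same-numbered arrays from their group means correlated at -0.058 to 0.0078. With 3 arrays per group these values cannot tell whether such arrays shared a preparation. With the replicate block 61 probe sets were higher, 27 lower and 0 of the 8 genes' probe sets passed. Values around the filter of 10 units, such as those of Id2 in E2, lie near background. This limits how well the size of their differences is known.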
